A study of Homo sapiens with 4 samples.

Results

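Levels of 5 genes for extracellular matrix and cell adhesion proteins, HMCN1, FBN1, ITGB8, ITIH3 and ADGRV1, were followed in HCT116 cells with and without overexpression of NCBP2. HCT116 is an established human colorectal cancer cell line, and NCBP2 encodes the smaller protein of the nuclear cap-binding complex, which holds the 5′ cap of new RNA polymerase II transcripts. The genes were taken by name from a deposited table of 38 genes, so they are 5 of 38. RNA sequencing of total RNA gave 4 libraries, 2 from cells overexpressing NCBP2 and 2 from cells of the PCDH control, whose columns are headed EV. All cells were cultured in medium with serum. Whether the cells were a pool or 1 clone, and whether the overexpression was stable or transient, no source used here states. Nothing states that same-group libraries are separate cultures, and the spread between them may therefore be technical.

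Extracellular matrix proteins and their receptors tie cells to their surroundings and control which growth factors reach them. Hemicentin 1 (HMCN1) is a very large matrix protein of the fibulin family with a long row of immunoglobulin domains. Fibrillin 1 (FBN1) builds the microfibrils of connective tissue and carries latent TGF-beta complexes, and mutations in its gene cause Marfan syndrome. Integrin beta 8 (ITGB8) pairs with the alpha V subunit and binds latent TGF-beta, which that pair activates. ADGRV1 is an adhesion G protein-coupled receptor with an exceptionally long extracellular part and is a gene of Usher syndrome. ITIH3 is a heavy chain of the inter-alpha-trypsin inhibitor family, made mainly in liver, which becomes attached to hyaluronan in the matrix.

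The members of the authors' deposited table had been selected on fold change and p-value in the same 4 libraries: all 38 (100%) have a fold of at least 2 and all 38 (100%) a p-value under 0.05, the 5 matrix and adhesion genes included. At the edge of that table stand GLCCI1, with the smallest fold of 2.01, and TRHDE-AS1, with the largest p-value of 0.0495. Genes beyond those limits were not analysed here. The values of the matrix and adhesion genes are therefore a description of genes chosen for being higher, and no test of that contrast was made. NCBP2 itself had control levels of 77.55 and 59.36 and reached 1066.8 and 1096.07 where it was overexpressed, a ratio of means of 15.8. Its fold in the authors' deposited table is 5.24, so those folds need not equal the ratios of levels. The unit of the deposited level is not named, and it is not known whether it is scaled by transcript length, so levels of different genes were not ranked against each other. Depth per library is unknown. None of 19 markers of colorectal epithelium, fibroblasts, endothelium and leukocytes is among the listed genes, so the labelled cell type was not checked.

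In all 5 matrix and adhesion genes the NCBP2 libraries lay above the controls without overlap, as in 33 of all 38 listed genes (86.8%). The difference between group means of log2(level + 1) lay between 0.46 for ITGB8 and 0.89 for HMCN1, with a median of 0.64, against a median of 0.69 over all listed genes. By the ratio of group mean levels, 3 of the 4 genes with a control level above 0 were at least 2-fold higher, against 26 of 31 listed genes (83.9%). Without control library 2 this held for 1 of the 4, against 13 of 30 listed genes. By the adjusted p of the authors' deposited table, none of the 5 passed 0.05, though the entry for ITIH3 may not be an adjusted value. Of the 38 listed genes 3 passed (7.89%), the overexpressed NCBP2 among them. That share is too small for none of 5 to set these genes apart. In bulk RNA, more cells with a transcript and more RNA per cell cannot be told apart.

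**Figure D1:**
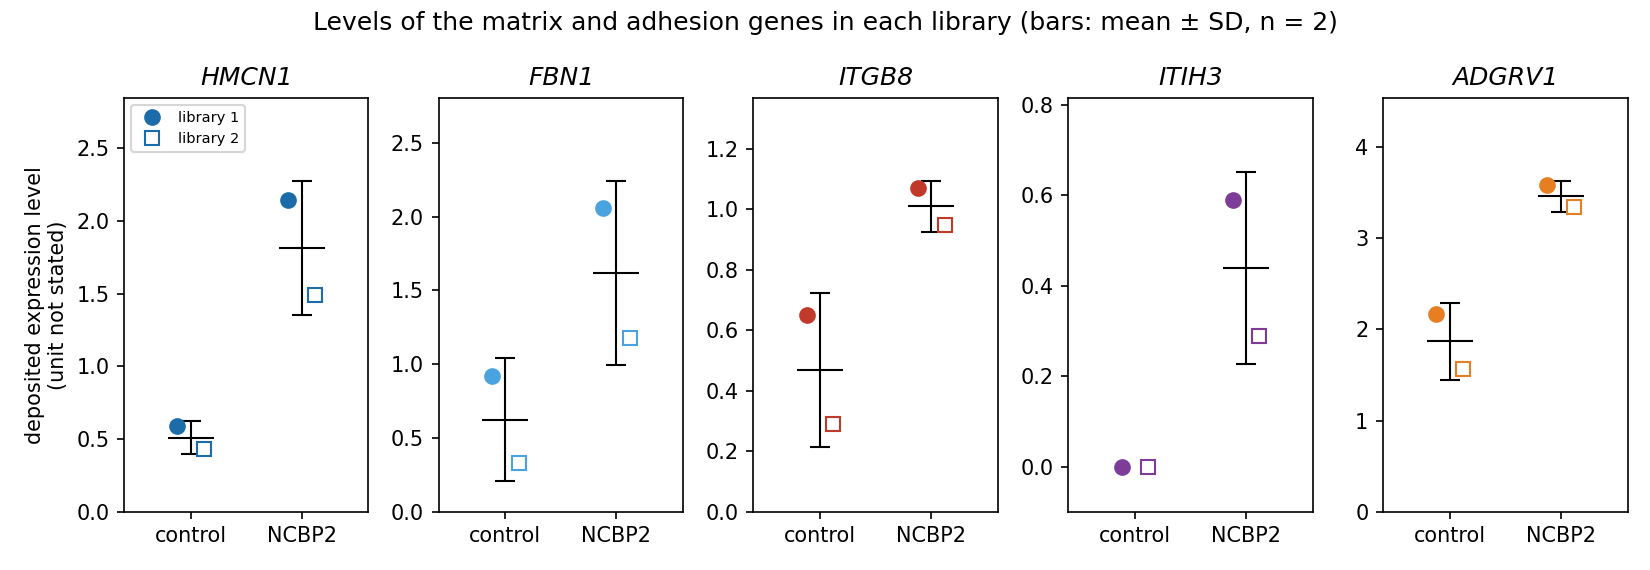
Deposited expression level (unit not stated) of HMCN1, FBN1, ITGB8, ITIH3 and ADGRV1 in the control and NCBP2 groups, with filled circles for library 1, open squares for library 2 and bars for the mean ± SD (n = 2 libraries each); no bar is drawn for the ITIH3 controls, both listed at 0. Each gene has its own axis, and both NCBP2 libraries lie above both controls in each panel.

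Among the matrix proteins, HMCN1 had the largest ratio of levels of the 4 genes with control levels above 0. Its level was 0.59 and 0.43 in the controls, and it stood at 2.14 and 1.49 with NCBP2. Each NCBP2 library stood well clear of each control, and the lower NCBP2 library was still 2.53 times the higher control. Group means of HMCN1 were 0.51 ± 0.113 and 1.82 ± 0.46 (SD, n = 2 each), giving a ratio of 3.56. A smaller fold of HMCN1, 2.13, stands in the authors' deposited table, beside p = 0.00645 and adjusted p = 0.978. The log2 difference was 0.89 on the log2(level + 1) scale and 1.83 by the ratio of means, since the pseudocount weighs on levels this low. HMCN1 occupies bases 185734551 to 186190949 of GRCh38 chromosome 1 (plus strand). Its longest coding transcript in GENCODE 29 has 107 exons and 16905 coding bases, more exons than nearly every other protein-coding gene (0.0457% have as many or more).

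For FBN1 the controls stood at 0.92 and 0.33, and the NCBP2 libraries at 2.06 and 1.18. The groups did not overlap, but they nearly met, because control library 1 was high and NCBP2 library 2 was low. The lower NCBP2 library was 1.28 times the higher control, the smallest such margin of the 4 genes with control levels above 0. Group means of FBN1 were 0.625 ± 0.417 and 1.62 ± 0.622 (SD, n = 2 each), giving a ratio of 2.59. The difference of means, 0.995, compares with SDs of 0.417 and 0.622 within the groups. On the log2(level + 1) scale the FBN1 difference of 0.69 became 0.43 without control library 2 and 0.45 without NCBP2 library 1. The authors' deposited table gives FBN1 a 2.09-fold change, with p = 0.0373 and adjusted p = 0.978. Both the fold and the p-value are near the limits of that table, in which FBN1 ranked 35 by fold and 30 by p-value among 38 genes. FBN1 occupies bases 48408306 to 48645849 of GRCh38 chromosome 15 (minus strand), and its longest coding transcript has 66 exons.

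Of the surface receptors, ITGB8 had control levels of 0.65 and 0.29 and reached 1.07 and 0.95 with NCBP2. The NCBP2 libraries were close to each other, whereas the controls differed 2.24-fold, so the size of the ITGB8 difference depends on which control is used. Group means of ITGB8 were 0.47 ± 0.255 and 1.01 ± 0.0849 (SD, n = 2 each), giving a ratio of 2.15. Without control library 2 its difference of log2(level + 1) went from 0.46 to 0.28. This ratio and the 2.16-fold change of the authors' deposited table were nearly equal. That entry of the authors' deposited table carries p = 0.00996 and adjusted p = 0.978. ITGB8 occupies bases 20330702 to 20415754 of GRCh38 chromosome 7 (plus strand). It has 14 exons in its longest coding transcript and shares 98 bases of exonic sequence with the antisense gene AC004130.1 on the opposite strand, which is 0.647% of its exonic length. No source used here states whether counting was strand-specific.

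The receptor gene ADGRV1 was at 2.17 and 1.57 in the controls, and its NCBP2 libraries were at 3.58 and 3.34. The NCBP2 libraries lay within 1.07-fold of each other and the groups did not overlap, with the lower NCBP2 library at 1.54 times the higher control. Group means of ADGRV1 were 1.87 ± 0.424 and 3.46 ± 0.17 (SD, n = 2 each). Their ratio of 1.85 was the lowest of the 4 genes with control levels above 0, and the only one under 2. The authors' deposited table has a higher fold for ADGRV1, 2.35. Of the 5 genes ADGRV1 also has the smallest p in the authors' deposited table, 3.26e-04, with adjusted p = 0.2. The gene with the lowest ratio of levels among those 4 thus had the smallest p-value in that table. ADGRV1 occupies bases 90529344 to 91164437 of GRCh38 chromosome 5 (plus strand). Its exons share 68 bases with LYSMD3 on the opposite strand, 0.201% of its exonic length.

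The place of ADGRV1 among all genes adjusted by the authors could be read from their values. Under the Benjamini-Hochberg procedure a gene's rank is its p-value times the number of tests, divided by its adjusted p-value. With 17776 tests, from the value of NCBP2 taken as rank 1, ADGRV1 was at rank 29. Of those 29 genes, 7 are in the deposited table, ADGRV1 included, and 22 are not, and their direction is not known here. A uniform distribution of p-values would place 5.79 genes at or below the p-value of ADGRV1. That number presumes well-calibrated p-values, but the tool behind them is not named and they rest on 2 against 2 libraries. The deposited table was also selected on these p-values, and the adjusted p of ADGRV1 is 0.2. No conclusion about ADGRV1 is therefore drawn from setting 5.79 beside 29. HMCN1, FBN1 and ITGB8 carry an adjusted p of 0.978 that 19 listed genes share, so no rank could be read for them.

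For ITIH3, the heavy chain gene, both controls were listed at 0, and its NCBP2 libraries stood at 0.59 and 0.29. The NCBP2 libraries differed 2.03-fold from each other, the widest such gap of the 5 genes in that group. Both controls were at 0 in 7 of the 38 listed genes (18.4%), and ITIH3 was the only one of the matrix and adhesion genes among them. With controls listed at 0 and no counts given, no fold is stated, and the 36.1-fold value of the authors' deposited table cannot be read as a size. For ITIH3 the authors' deposited table gives p = 0.0341 and an adjusted p entered as 1, an entry of 6 listed genes in all, itself counted. FBN1, with a larger p, has 0.978 in the authors' deposited table, so the 1 may mean that ITIH3 was left out of the adjustment. Because the level is rounded to 0.01 and depth is unknown, a level of 0 does not show that ITIH3 was absent. ITIH3 occupies bases 52794768 to 52809009 of GRCh38 chromosome 3 (plus strand), and no other gene of GENCODE 29 overlaps it.

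**Figure D2:**
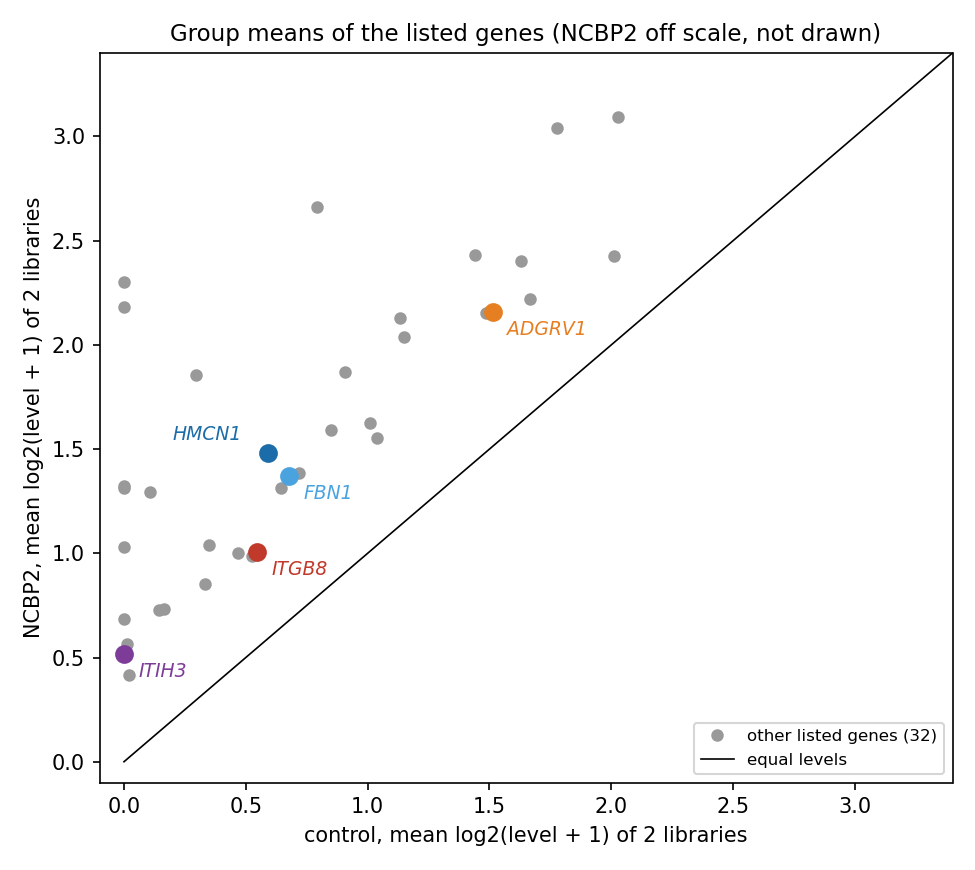
Mean log2(level + 1) of the 2 NCBP2 libraries against that of the 2 control libraries for the listed genes, with the matrix and adhesion genes coloured and the line marking equal levels; NCBP2 is off the scale. ITIH3 sits on the left edge at a control level of 0, and the other 4 genes lie above the line by 0.46 to 0.89 among the grey points.

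The libraries of each group did not stand level. In the 4 genes with control levels above 0, control library 2 was below control library 1 in each, by 1.37-fold for HMCN1, 1.38-fold for ADGRV1, 2.24-fold for ITGB8 and 2.79-fold for FBN1. The same order held in 28 of the 30 listed genes whose controls differed (93.3%), so it belongs to the table at large. NCBP2 library 2 was below NCBP2 library 1 in all 5 matrix and adhesion genes, by 1.07-fold for ADGRV1, 1.13-fold for ITGB8, 1.44-fold for HMCN1, 1.75-fold for FBN1 and 2.03-fold for ITIH3. Over the whole list this order held in 15 of 38 genes (39.5%), and in 10 of the 33 other genes. The median ratio of NCBP2 library 1 over library 2 was 1.44 in the 5 genes and 0.835 in the other listed genes. The part of this difference in the results was not tested.

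**Figure D3:**
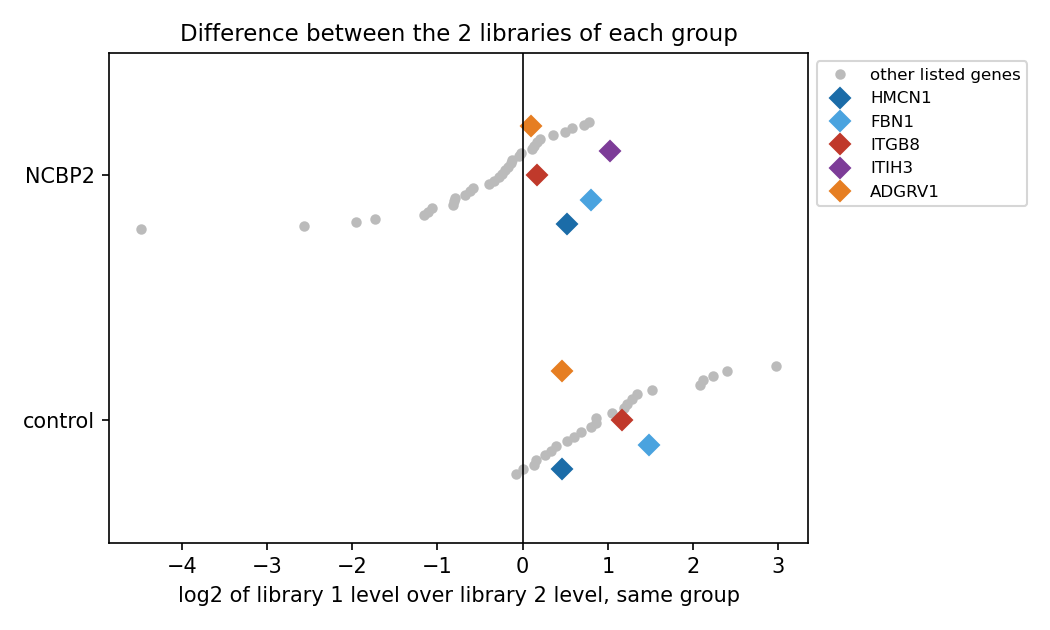
Log2 of the level in library 1 over that in library 2 of the same group, for the matrix and adhesion genes (diamonds) and the other listed genes (grey points), in genes above 0 in both libraries; vertical position within a group only separates points. All 5 genes lie right of 0 in the NCBP2 group, where 9 of the 32 other genes drawn do.

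The libraries were also set side by side by the number in their headings. With the libraries headed 1, the NCBP2 level was 3.63 times the control for HMCN1, 2.24 times for FBN1, 1.65 times for ITGB8 and 1.65 times for ADGRV1. With the libraries headed 2 it was 3.47, 3.58, 3.28 and 2.13 times, in the same order of genes. HMCN1 thus had nearly the same ratio in both settings, whereas that of ITGB8 was much higher in the second. Control library 2 was below control library 1 in 28 of the 30 listed genes whose controls differed (93.3%). A lower control raises the second ratio, so such a rise is not particular to ITGB8. Since no control column could be tied to 1 sample, the numbers in the headings do not pair the libraries.

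The profile of each gene over the 4 libraries was then compared with all others of the table, as the root mean square distance between log2(level + 1) values centred on each gene's mean. For FBN1 the nearest gene was the antisense RNA CCNT2-AS1, at 0.0665, followed by the long noncoding RNA LINC00326 at 0.125. LINC00326 was also nearest to HMCN1, at 0.138, and ADGRV1 came second at 0.162. ITGB8 was nearest to PTHLH, the gene of parathyroid hormone-related protein, at 0.0331, and ADGRV1 to the antisense RNA RASAL2-AS1 at 0.05. ITIH3 was nearest to TRHDE-AS1, at 0.0758. The only pair of matrix and adhesion genes in which 1 was among the 2 nearest genes of the other was thus ADGRV1 for HMCN1. These distances rest on 4 libraries and favour genes of similar difference, since every listed gene is higher with NCBP2. They also depend on the pseudocount, which weighs most on low levels, so near genes can differ in their ratios. RASAL2-AS1 had a ratio of group mean levels of 5.28, against 1.85 for ADGRV1, whereas PTHLH and ITGB8 were alike at 2.19 and 2.15.

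Families of the 5 genes and other matrix genes were looked up in the table by 10 lists holding 183 symbols. HMCN1 was the only listed one of 8 fibulins and hemicentins, FBN1 of 17 fibrillins and microfibril partners, and ITGB8 of 26 integrin subunits. ADGRV1 was the only one of 32 adhesion G protein-coupled receptors, and ITIH3 of 16 genes of the inter-alpha-trypsin inhibitor and hyaluronan. No gene was listed among 10 genes of latent TGF-beta and its presenters, 8 Usher complex partners of ADGRV1, 26 collagen and basement membrane genes or 19 matrix proteases and inhibitors. Among 21 cadherin and junction genes, GJA1, which encodes the gap junction protein connexin 43, was the 1 listed, with control levels of 0.03 and 0 and NCBP2 levels of 0.16 and 0.53. The alpha V integrin subunit, the partner of ITGB8, was among the genes not listed. Over all lists 6 symbols were in the table, the 5 genes whose families were looked up and GJA1. The table holds only 38 genes, against 17776 tests in the authors' adjustment. A list without a listed gene is therefore no result about that family. The levels of genes outside the table were not analysed here.

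Gene structure was not used to choose the genes. Exonic sequence, merged over transcripts, came to 33822 bases for ADGRV1, 18579 for HMCN1, 16057 for FBN1, 15156 for ITGB8 and 5921 for ITIH3, against a median of 4248 over 19688 protein-coding genes of GENCODE 29. The 21 listed protein-coding genes with an entry had a higher median of 8636 bases. Their median number of exons in the longest coding transcript was 14, against 8 over all protein-coding genes. Of all protein-coding genes, 0.102% have as much exonic sequence as ADGRV1 or more, 1.11% as HMCN1, 1.93% as FBN1, 2.35% as ITGB8 and 32.2% as ITIH3. Of the 8751 bases in the longest coding transcript of ITGB8, 2307 are coding, against 2670 of 3007 for ITIH3. The genomic span ran from 14.2 kb for ITIH3 to 635 kb for ADGRV1, with 456 kb for HMCN1, 238 kb for FBN1 and 85.1 kb for ITGB8, against a median of 26.9 kb for all protein-coding genes and 74.9 kb for the 21 listed ones with an entry. Those 21 include the 5 genes, which are a choice from the table, so these shares are a description. The part of gene length in the listed differences was not tested.

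**Figure D4:**
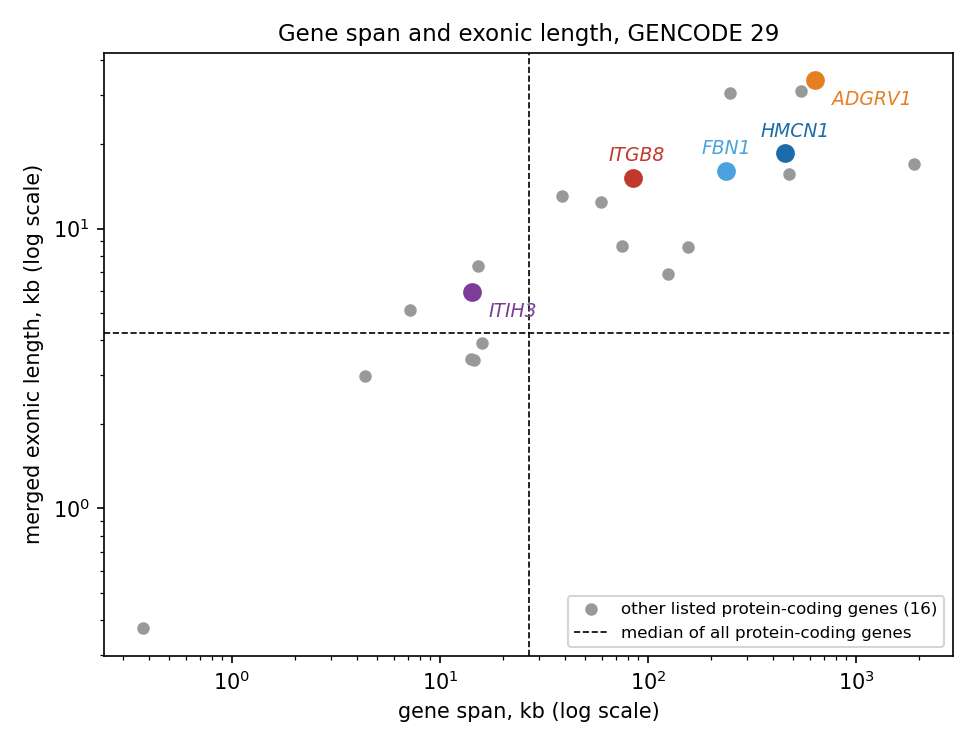
Merged exonic length against gene span (both in kb, log scales) for the 5 matrix and adhesion genes and the 16 other listed protein-coding genes with a GENCODE 29 entry, with dashed lines at the medians of all protein-coding genes. ADGRV1, HMCN1, FBN1 and ITGB8 lie above both medians, and ITIH3 is shorter in span than the median but longer in exonic sequence.

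Promoter sequences were examined for the genes that were higher together, as RefSeq gives them on GRCh38.p14 from 250 bases before to 50 bases after the start that RefSeq gives a gene. That start lies inside the GENCODE 29 gene, 28 bases past its first base for ITIH3, 198 for ITGB8, 879 for FBN1 and 29453 for ADGRV1, so the ADGRV1 window is not at the gene's most upstream annotated start. An entry was matched for 4 of the 5 genes, all but HMCN1. The motifs searched on both strands were the TATA box TATAAA, the GC box GGGCGG, the AP-1 motif TGACTCA or TGAGTCA and the E-box CACGTG. Only the GC box was found, and only in ITGB8 and ADGRV1. The sequences of these 2 genes and of ITIH3, the gene listed at 0 in the controls, are shown 5′ to 3′ on the gene's strand, with the GC box or its reverse complement in capitals. They lie at chr7:20330650-20330949 (ITGB8, plus strand), chr5:90558547-90558846 (ADGRV1, plus strand) and chr3:52794546-52794845 (ITIH3, plus strand).
ITGB8: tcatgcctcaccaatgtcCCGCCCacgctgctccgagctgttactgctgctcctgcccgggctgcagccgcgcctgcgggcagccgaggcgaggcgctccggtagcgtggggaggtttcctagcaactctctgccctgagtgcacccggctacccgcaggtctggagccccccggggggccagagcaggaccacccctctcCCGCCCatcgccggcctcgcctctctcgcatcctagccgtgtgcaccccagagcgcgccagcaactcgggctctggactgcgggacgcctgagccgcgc
ADGRV1: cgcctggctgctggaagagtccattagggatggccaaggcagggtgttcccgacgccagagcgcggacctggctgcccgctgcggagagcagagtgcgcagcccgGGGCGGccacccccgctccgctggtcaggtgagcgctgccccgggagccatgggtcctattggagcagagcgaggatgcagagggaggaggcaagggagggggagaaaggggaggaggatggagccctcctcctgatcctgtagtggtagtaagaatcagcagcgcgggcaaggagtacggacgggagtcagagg
ITIH3: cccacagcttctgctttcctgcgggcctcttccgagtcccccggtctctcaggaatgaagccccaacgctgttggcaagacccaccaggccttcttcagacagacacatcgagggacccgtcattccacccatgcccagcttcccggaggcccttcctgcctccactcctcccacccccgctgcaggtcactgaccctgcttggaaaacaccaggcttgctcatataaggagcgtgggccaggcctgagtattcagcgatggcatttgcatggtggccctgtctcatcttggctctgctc

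The ITGB8 window held 2 GC boxes, both on the opposite strand, and the ADGRV1 window held 1. A GC box was present in 45% of 35116 RefSeq promoters of the same length, a TATA box in 11.5%, an AP-1 motif in 4.95% and an E-box in 7.26%. No match says only that these letters are not in the window. The ITIH3 promoter was the poorest of the 4 in CpG, with 10 CpG dinucleotides and an observed over expected ratio of 0.383. FBN1 had 26 (0.75), ITGB8 28 (0.742) and ADGRV1 19 (0.6). The medians over all promoters were 14 and 0.579. Of all promoters, 56.4% had as many CpG dinucleotides as ITIH3 or more, and 60.7% as high a ratio or higher. GC content was 60.7% for ITIH3, 67% for ADGRV1, 68.3% for FBN1 and 71.7% for ITGB8, against a median of 58.7%. Thus none of the letters searched was present in all 4 promoters.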

How the data were processed

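RNA sequencing libraries of HCT116 cells were compared, 2 with NCBP2 overexpression and 2 of the PCDH control. The authors deposited a table of 38 genes with, per the file headers, the ratio (fold) of NCBP2 over EV, the log2 of that fold, and p-values before and after adjustment. The deposited table also has an expression signal per library, rounded to 0.01, and group means. No source used here gives the unit and scaling of the signal or the tool behind the p-values. Bowtie 0.12.2 and mm9, a mouse build, appear in the submitters' processing notes, although the table's identifiers are human. EV was taken as the PCDH control, the only other group, with no column assigned to 1 sample.

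Means, SDs, ratios and differences of log2(level + 1) were computed with pandas 2.3.3 in Python 3.11.15. No test was made on levels, since the genes had been picked as higher on the same libraries, and 2 against 2 libraries cannot give an exact two-sided permutation p under 0.333. Ranks were read where the number of tests times p over adjusted p was whole to within 1e-06 and no other listed gene had the same adjusted p. GENCODE 29 (GRCh38) was matched by Ensembl identifier, using the transcript with the longest coding sequence.

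The genes, lists and motifs were chosen with earlier results of these data known. Named genes were the 5 genes, the 2 nearest profiles of each, listed genes of the 10 lists, NCBP2 and genes at the limits of a value. Alternatives were another pseudocount (0.1) or none, arithmetic means, the authors' folds, level and fold limits, and leaving out each library. Protein sequences were not used here.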

Additional observations from a re-analysis of the deposited data

How the results depend on the processing

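No difference changed direction under any of the 38 alternative values tried for the 5 genes. None could, since the groups did not overlap in any of these genes and the listed folds were selected to be at least 2. The size of each difference depended on the scale. With a pseudocount of 0.1 the log2 difference was 1.64 for HMCN1, 1.33 for FBN1, 1.04 for ITGB8, 2.38 for ITIH3 and 0.87 for ADGRV1. With no pseudocount it was 1.83, 1.5, 1.22 and 0.91 for HMCN1, FBN1, ITGB8 and ADGRV1, and by arithmetic means 1.83, 1.37, 1.10 and 0.89. ITIH3 has no value there, its controls being listed at 0. The log2 fold of the authors' deposited table was 1.09 for HMCN1, 1.07 for FBN1, 1.11 for ITGB8, 5.17 for ITIH3 and 1.23 for ADGRV1. Leaving out single libraries gave 0.72 to 1.06 for HMCN1, 0.43 to 0.96 for FBN1, 0.28 to 0.64 for ITGB8, 0.37 to 0.67 for ITIH3 and 0.49 to 0.79 for ADGRV1. The differences of FBN1 and ITGB8 fell to 0.43 and 0.28 without control library 2.

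The number of genes with separate groups was 5 throughout the leave-one-out settings, which cannot lower it, and 3 when only the 3 genes averaging 1 or more were kept. The number at least 2-fold higher by levels was 3, but ranged from 1 to 4 on leaving out a library. It was 1 of 4 without control library 2, against 13 of 30 listed genes (43.3%). Without control library 1 it was 4 of 4, against 28 of 29 listed genes (96.6%). By the fold of the authors' deposited table it was 5, as in all 38 listed genes, which had been selected on that fold. For these shifts the cause was not tested. No paired analysis was possible because the control columns are not tied to single samples and no test was made. With depth unknown, the reads behind a low level cannot be counted.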
